A study of Mus musculus with 4 samples.

Results

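The cells described here are 493 alveolar type I (AT1) cells among the sorted lung cells of day 0. The cells were chosen by their own transcripts, and a barcode belonged to them when it met 4 conditions. It had at least 500 detected genes with at most 15% of its unique molecular identifiers (UMIs, counted transcripts) from mitochondrial genes; Ager and Hopx together made up at least 1% of its UMIs; Rtkn2, Spock2, Col4a3 and Igfbp2 together had at least 1 UMI; and Cldn5, of endothelial cells, and Ptprc, of blood cells, had none. The first condition kept 7350 of the 8902 barcodes of the library, and the members were 6.71% of those kept (exact Clopper-Pearson 95% interval 6.15 to 7.30%). The whole series held 42105 barcodes in 4 libraries, 1 for each of days 0, 8, 13 and 20. All mice were Gramd2creERT2;mTmG: an inducible Cre recombinase under the control of Gramd2 (also written Gramd2a) switches a membrane reporter from tdTomato to EGFP. Day 0 was the GFP-positive fraction from flow sorting of lung cells, which the labels call alveolar epithelial cells. For the organoid days such cells were grown in Matrigel beside fibroblasts of the mouse lung line MLg with SB 431542, an inhibitor of TGF-beta receptors, then enriched on EpCAM beads. The sources used here give neither the number and age of the mice, nor any pooling, nor the time of Cre induction. With 1 library a day no difference has a replicate check, no test was made, and every interval below is a 95% interval that covers counting error only.

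AT1 cells are the thin, spread-out cells that form most of the gas-exchange surface of the alveolus. They share a basement membrane with the capillary endothelium, are rich in caveolae, move ions and water, and send signals such as VEGF-A to the endothelium beneath them. AT2 cells, the cuboidal neighbours that make surfactant, can give rise to AT1 cells, and the transcription factor NKX2-1 and the YAP/TAZ-TEAD pair are known regulators of the AT1 state.

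The promoters of 4 genes are shown because the results turn on these genes: Gramd2 drives the Cre that marked the cells, Pdpn and Vegfa are standard AT1 genes outside the membership rule, and Flrt3 is among the 20 genes with the highest ratios below and is the only one of the 4 whose stretch held a motif searched for. Each is the run of 250 bases just before the start of the gene in RefSeq, build GRCm38.p6, 5′ to 3′ on the strand of the gene, in lower case. Capitals mark the 1 match, to the C/EBP motif TTGCNNAA read on the opposite strand, which starts 161 bases before the start of Flrt3. The stretches are chr9:59679583-59679832 on the plus strand (Gramd2), chr4:143299565-143299814 on the minus strand (Pdpn), chr17:46032378-46032627 on the minus strand (Vegfa) and chr2:140671477-140671726 on the minus strand (Flrt3, inside the annotated gene Macrod2).
Gramd2: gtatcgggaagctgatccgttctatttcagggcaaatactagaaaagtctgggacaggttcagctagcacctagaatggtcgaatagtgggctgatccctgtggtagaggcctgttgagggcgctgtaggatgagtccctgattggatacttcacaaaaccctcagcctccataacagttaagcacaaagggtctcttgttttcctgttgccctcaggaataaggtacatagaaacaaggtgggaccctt
Pdpn: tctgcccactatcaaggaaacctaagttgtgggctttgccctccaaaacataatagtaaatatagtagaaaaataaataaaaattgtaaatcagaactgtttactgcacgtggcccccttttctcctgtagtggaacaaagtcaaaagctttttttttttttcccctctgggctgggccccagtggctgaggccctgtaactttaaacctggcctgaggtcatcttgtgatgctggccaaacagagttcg
Vegfa: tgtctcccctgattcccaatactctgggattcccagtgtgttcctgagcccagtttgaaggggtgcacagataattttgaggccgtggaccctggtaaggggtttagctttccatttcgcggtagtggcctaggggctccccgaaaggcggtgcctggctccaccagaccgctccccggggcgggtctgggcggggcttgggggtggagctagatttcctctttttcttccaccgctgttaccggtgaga
Flrt3: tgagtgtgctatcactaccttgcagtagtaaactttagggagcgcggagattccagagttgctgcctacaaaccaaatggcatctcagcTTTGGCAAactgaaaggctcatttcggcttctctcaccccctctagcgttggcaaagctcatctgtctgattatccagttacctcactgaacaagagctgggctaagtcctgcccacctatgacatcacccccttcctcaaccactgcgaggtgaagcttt

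Promoters of 300 bases (250 before to 50 after the start) were searched on both strands for GGAATG (TEAD), CAAGTG (NKX2-1), TGANTCA (AP-1) and TTGCNNAA (C/EBP). Of the 20 genes with the highest ratios against the other barcodes, 14 were matched in the RefSeq table, with 18 promoters. TEAD letters were in 1 of the 18 (5.56%), beside 14.7% of all 32851 promoters. NKX2-1 letters were in 3 (16.7%, beside 13.6%), C/EBP letters in 1 (5.56%, beside 10.8%) and AP-1 letters in 0 (beside 7.81%). Of all 687 genes called higher with at least 100 CPM (counts per 1e+06 UMIs), 533 were matched with 731 promoters, and the shares were 14.4% for TEAD, 11.9% for NKX2-1, 7.25% for C/EBP and 6.43% for AP-1, each below the share of all promoters. Letters in such a window are a description and not a binding site.

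The 493 cells held 1380539 UMIs, with a lowest depth of 628, a median of 2624 and a highest of 16128 UMIs per cell, and a median of 1433 detected genes. The libraries of days 0, 8, 13 and 20 totalled 31850454, 154258012, 120905926 and 149916314 UMIs. Levels are given as CPM, the UMIs of a gene summed over all cells of a class, per 1e+06 UMIs of that class; since each transcript is counted at its 3′ end, CPM is not scaled by gene length. Between 25 and 41 barcodes of an organoid library had the same sequence as one of day 0, and 3 members shared theirs with each organoid library. Nuclear RNA is the molecule named in the labels, while the protocol describes whole-cell suspensions. Possible doublets were not removed: the automatic threshold of the doublet caller marked 0 cells, and the 523 highest scores, left out only as an alternative, included 46 members (9.33%).

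Membership rested mainly on Ager and Hopx. Among the kept barcodes, 565 reached 1% of UMIs from this pair, 3 of these lacked a UMI of the second set, and 69 were left out for Cldn5 (27 barcodes) or Ptprc (45 barcodes). The pair reached a median of 4.21% in the members, with 2.27% at the 10th percentile, 5.44% at the 90th and 7.94% at the top. The members nearest the limit had 1.01, 1.02 and 1.05%, and the barcodes nearest outside it had 0.958, 0.952 and 0.910%.

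Genes that the rule did not use followed the share of Ager and Hopx, which describes the choice and supports nothing. In kept barcodes without Cldn5 and Ptprc (the bands under 1% did not require the second gene set), Aqp5, a water channel of AT1 cells, was at 413 CPM in the 48 barcodes with 0.25 to 0.5% of the pair, 867 CPM in the 29 with 0.5 to 1%, 1946 CPM in the 38 members with 1 to 2%, 3765 CPM in the 158 with 2 to 4% and 5291 CPM in the 297 with 4% or more. Vegfa, the endothelial growth factor, was at 175, 1762, 2395, 5764 and 5655 CPM in the same bands. Sftpc, the surfactant protein C gene of AT2 cells, went from 59662 CPM in the lowest band to 298, 2465, 346 and 175 CPM. The Sftpc of the band from 1 to 2% came mostly from few barcodes: without the 21 members that had 1% or more of their UMIs from immunoglobulin genes, Sftpc, S100a8 and S100a9, Lyz2, Cd74, Acta2 or Apoe (rich members, a set chosen after seeing the data) it was 215 CPM in 23 members, beside 157 and 175 CPM in the 2 higher bands. Aqp5 was then at 1938, 3780 and 5291 CPM, so the members nearest the limit held less of it with and without those barcodes. The other 6857 kept barcodes were not free of AT1 transcripts: 72 of them also reached 1% of Ager and Hopx, and these held 3446 of the 6009 Ager UMIs outside the members (57.3%).

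**Figure D1:**
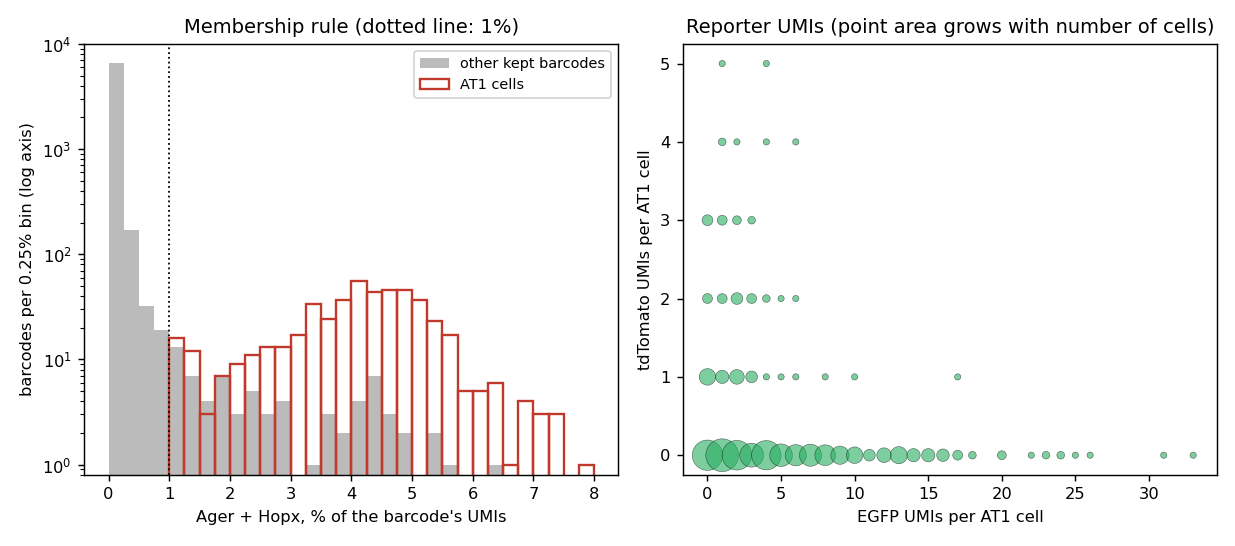
Left, number of kept day 0 barcodes (log axis) by the percent of their UMIs from Ager and Hopx, in bins of 0.25%, with the 493 AT1 cells outlined in red and the 6857 others in grey; right, tdTomato against EGFP UMIs per AT1 cell, with point area growing with the number of cells. The members form a broad peak around 4.21%, and most points lie on the row with 0 tdTomato UMIs.

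The 6 marker genes of the rule were present at high level, as the choice required. Ager, a pattern-recognition receptor of the AT1 basolateral membrane (chr17:34597460-34600937), was at 24200 CPM (23941 to 24461) against 205 CPM in the others, and had a UMI in 99.8% of members. Hopx, a homeodomain cofactor (chr5:77086986-77115123), was at 16872 CPM against 294 CPM. Igfbp2, an IGF-binding protein of mature AT1 cells (chr1:72824480-72852474), was at 2591 CPM against 18.4 CPM, Col4a3, a basement membrane collagen chain, at 2025 against 21.5 CPM, Rtkn2 at 1186 against 15.5 CPM, and Spock2, a proteoglycan, at 1164 against 19.5 CPM. Igfbp2 had a UMI in 88.8% of members, at a median depth of 2624 UMIs, and in 2.03% of the 2365 immune barcodes, at a median depth of 4279. Immune barcodes (Ptprc at 2 UMIs or more, no Cldn5) should lack epithelial genes, so for such genes they serve as a rough background of free RNA. Single immune barcodes reached 60.6% of their UMIs from airway secretory genes and 4.36% from Ager and Hopx. The summed levels of the class can therefore lie above free RNA alone. After every barcode was thinned to 1000 random UMIs, leaving out 48 members below that depth, the shares with an Igfbp2 UMI were 76.0 and 0.742%.

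The label was also set beside AT1 markers outside the rule, a list chosen with earlier results of these data known. Of 32 further AT1 markers, 31 were higher in the members than in all other kept barcodes and 1 was lower. A gene was called higher or lower when the ratio of CPM was at least 2-fold, the larger side had at least 20 CPM and the interval of the ratio excluded 1; counts below 3 UMIs were raised to 3. Of 7997 genes at 20 CPM or more in either class, 1515 were called higher (18.9%) and 1813 lower (22.7%). The rule chose the members on this contrast, so these counts describe the choice. Over the 11819 genes with at least 5 CPM in either class the median log2 ratio was −0.07, and over the 32 markers it was 4.88.

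**Figure D2:**
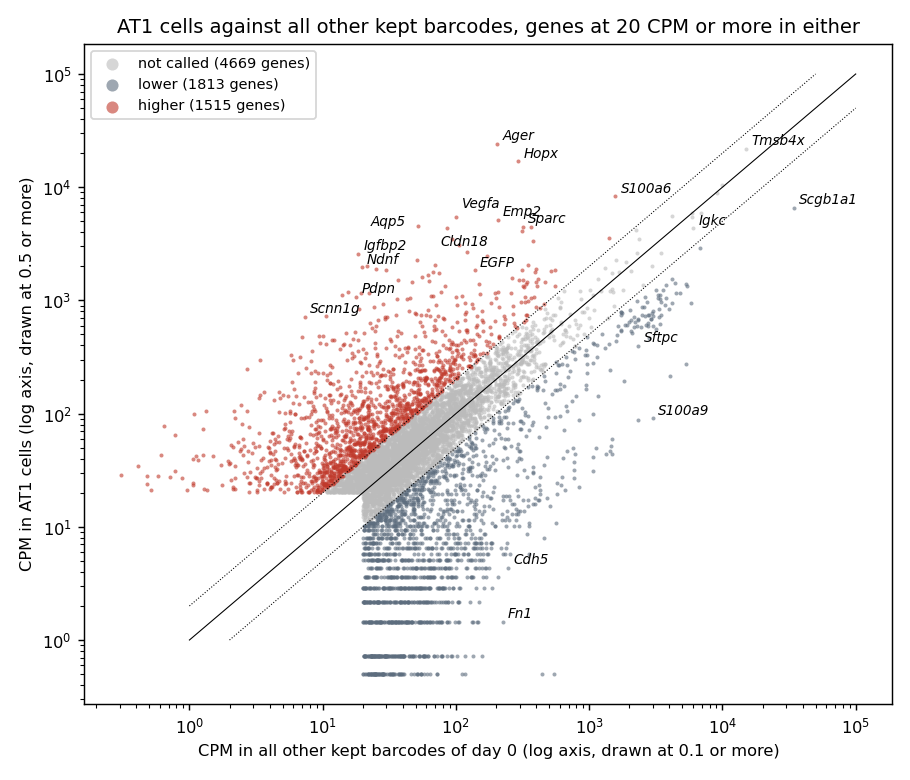
CPM of each gene in the 493 AT1 cells against all other kept barcodes of day 0, both on log axes, with 1515 genes called higher in red, 1813 called lower in blue-grey and the rest in grey; dotted lines mark 2-fold. Ager and Hopx sit at the top left, and Vegfa, Aqp5, Ndnf and Igfbp2 near them.

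Among genes outside the rule with at least 100 CPM in the members, the highest ratio belonged to Ndnf, a secreted neuron-derived factor (chr6:65671611-65712323), at 1961 CPM (1888 to 2036) against 19.6 CPM, 99.9-fold (91.3 to 110). Scnn1g, the gamma subunit of the epithelial sodium channel, was at 716 against 7.36 CPM, 97.4-fold (84.0 to 113). Aqp5 (chr15:99591028-99594829) was at 4569 against 51.7 CPM, 88.4-fold (83.5 to 93.5), and varied over the members from 1569 CPM at the 10th percentile through a median of 4292 to 7558 at the 90th. Itgb6, the beta chain of a TGF-beta activating integrin, and Popdc3 were at 87.8- and 80.2-fold, at levels of 299 and 106 CPM. These genes were low in the mixed others, though Aqp5 reached 529 CPM in the AT2 cells of the library, and ranged in level from the 106 CPM of Popdc3 to the 4569 CPM of Aqp5.

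Next came genes of the membrane and the cell surface. Akap5, a kinase anchor (1111 CPM, 79.6-fold), Gprc5a, an orphan receptor (1893 CPM, 75.6-fold), Sema3a, a guidance ligand (474 CPM, 68.2-fold), Flrt3, a leucine-rich transmembrane protein (725 CPM, 68.0-fold) and Col4a4, the partner chain of Col4a3 (1864 CPM, 62.8-fold), all had levels under 30 CPM in the others. Pdpn, podoplanin, the classical T1-alpha antigen, was at 1071 against 17.9 CPM, 59.8-fold (54.1 to 66.2), and had a UMI in 85% of members and 1.95% of immune barcodes. Vegfa was at 5453 CPM (5330 to 5578) against 100 CPM, 54.3-fold (52.0 to 56.7), and ranged from 2295 CPM at the 10th percentile of members through a median of 5184 to 9749 at the 90th. Nearly every member thus carried Vegfa: 98.4% had a UMI, against 9.01% of immune barcodes. Others of the 20 were Matn4 (57.4-fold), Mal2 (51.7-fold), Scnn1b, the beta subunit of the sodium channel (51.5-fold), Cldn18, the alveolar tight-junction claudin (4356 CPM, 50.6-fold), Misp3 (49.5-fold), Pof1b (48.9-fold) and Lama3, a laminin alpha chain (489 CPM, 48.7-fold).

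The lowest ratios belonged to genes of other lineages. Plac8, Ccl5, Cybb and Spi1, of blood cells, were at 5.79, 3.62, 7.97 and 5.79 CPM in the members against 356, 208, 454 and 235 CPM in the others, lower by 61.4-, 57.3-, 57.0- and 40.6-fold. Cdh5, the endothelial cadherin, was lower by 56.2-fold (4.35 against 244 CPM), Ccl21a, of lymphatic endothelium, by 52.2-fold and the complement gene C3 by 44.1-fold. Fn1, fibronectin, had 2 UMIs in the members and 224 CPM in the others. The absence of Cldn5 and Ptprc was a condition of membership, so low blood and endothelial genes follow from the choice.

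The most abundant genes of the members, besides mitochondrial and ribosomal ones, mixed AT1 genes with genes common to the library. Tmsb4x, an actin-binding peptide, was at 21860 CPM and Actb at 10418 CPM, neither past 2-fold from the others (1.44- and 1.05-fold). S100a6, a calcium-binding protein, was at 8330 CPM, 5.30-fold higher (5.19 to 5.41), Emp2, a tetraspan membrane protein that AT1 cells carry, at 5181 CPM and 25.2-fold, Sparc, a matrix protein, at 4488 CPM and 14.1-fold, and Prdx6, a peroxiredoxin, at 4495 CPM and 12.2-fold. Scgb1a1, the secretoglobin of club cells, was at 6583 CPM, yet immune barcodes held 8071 CPM and ciliated cells 11122 CPM of it.

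A further pair of comparisons set the members against epithelial neighbours in the same library. AT2 cells were the 90 barcodes with Sftpc at 2% of UMIs or more and at least 2 UMIs from Lamp3, Slc34a2, Lyz1, Cxcl15, Napsa and Abca3. Against them 1793 of 7185 genes were higher in AT1 cells (25%) and 898 lower (12.5%). This split depended on scaling: with mitochondrial genes, Scgb1a1 and Sftpc left out of the totals, 1340 were higher and 1133 lower, the share of higher calls went from 66.6 to 54.2%, and the median log2 ratio of the genes tested moved by −0.24, from 0.39 to 0.15. After thinning each barcode to 1000 UMIs, 839 were higher and 649 lower. Ciliated cells were 429 barcodes rich in Tmem212, Ccdc153, Tppp3, Dynlrb2 and Sec14l3, and against them 1400 of 8091 genes were higher in AT1 cells (17.3%) and 2089 lower (25.8%). Both classes lacked Cldn5 and Ptprc by the same condition, so blood and endothelial genes were not removed from one side only. Over genes with at least 5 CPM in either class, the median log2 ratio was 0.18 against AT2 cells (10717 genes) and −0.16 against ciliated cells (11094 genes).

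Ager, Vegfa, Aqp5 and Cldn18 were higher than in both classes, with larger ratios against ciliated than against AT2 cells. Ager was 22.4-fold (20.4 to 24.8) higher than in AT2 cells, at 1079 CPM there, and 505-fold (403 to 641) higher than in ciliated cells. Since Ager is part of the membership rule, its ratios describe the choice. Vegfa was 45.9-fold higher than in AT2 cells (119 CPM) and 166-fold higher than in ciliated cells (32.8 CPM). Aqp5 and Cldn18 were 8.63- and 4.69-fold higher than in AT2 cells, where they stood at 529 and 929 CPM, beside 345- and 9.16-fold against ciliated cells. Pdpn had 2 UMIs in all 90 AT2 cells (5.16 CPM), Scnn1g 2 and Flrt3 1, and Sema3a, Sema3e, Bdnf and Nt5e had none, which puts the AT1 level at least 61.2-, 133-, 57.7- and 53.4-fold higher. The 90 AT2 cells held only 387412 UMIs, which limits these ratios. In the plot of levels by class the AT1 points lie to the right of all others for the AT1 genes, with wide intervals for the AT2 class.

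**Figure D3:**
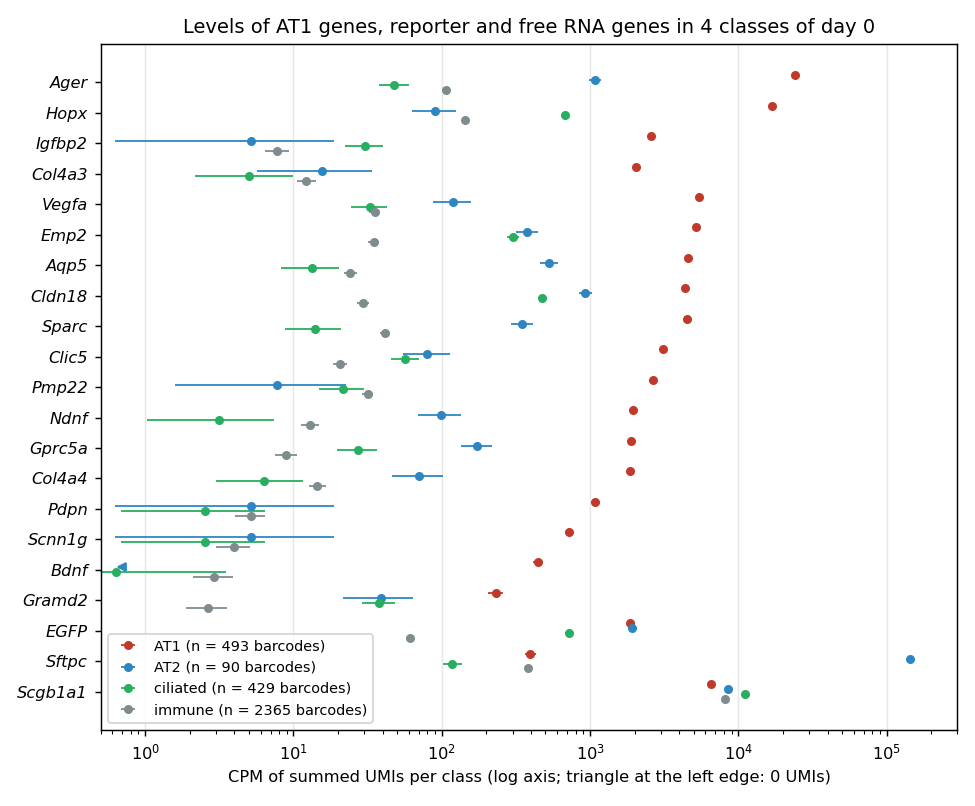
CPM (log axis) of summed UMIs with 95% counting intervals for 21 genes in the 493 AT1, 90 AT2, 429 ciliated and 2365 immune barcodes of day 0; triangles at the left edge stand for 0 UMIs. AT1 genes from Ager to Gramd2 are highest in AT1 cells, EGFP is alike in AT1 and AT2 cells, and Scgb1a1 lies between 6583 and 11122 CPM in all 4 classes.

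Surfactant and lamellar body genes were among those lower than in AT2 cells. All 16 measured AT2 markers were lower, with a median log2 ratio of −7.93. Sftpc, Lamp3, Slc34a2, Lyz1, Cxcl15, Napsa and Abca3 were used to choose the AT2 cells, so their lower levels here follow from that choice. Sftpc was at 395 CPM (362 to 429) against 142907 CPM, lower by 362-fold (333 to 395), and Sftpa1, surfactant protein A, was at 35.5 against 20709 CPM, lower by 583-fold. Lamp3, a lamellar body membrane protein, had 0 UMIs against 1691 CPM, at least 778-fold lower, and Lyz1 had 1 UMI against 2845 CPM. Slc34a2, the phosphate carrier of AT2 cells, was lower by 428-fold, Cxcl15 by 558-fold and Sfta2 by 443-fold. Abca3, the lipid pump of lamellar bodies (194 against 1193 CPM), and Lpcat1, a surfactant lipid enzyme (183 against 1301 CPM), differed least, by 6.14- and 7.13-fold, and both were higher than in the mixed other barcodes, 2.20- and 3.84-fold.

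Genes lower than in ciliated cells began with Cyp2a5, a cytochrome P450 (5.79 against 1161 CPM, lower by 200-fold), Pierce1, of the ciliary axoneme (108-fold), and Ctxn1 (106-fold). Cibar2, Dnah11, a dynein heavy chain of cilia, Elmod1, Hs6st2 and Sptssb had 2 or 3 UMIs in the members and 199 to 252 CPM in ciliated cells. Of 10 ciliated markers, 8 were lower in AT1 cells than in the mixed others, among them Foxj1, the regulator of ciliogenesis (11.6 against 621 CPM). The other 2, Sec14l3 and Tppp3, were higher: Sec14l3, a lipid-binding protein, was at 1042 CPM (989 to 1098) against 199 CPM, and Tppp3, a tubulin-binding protein, at 750 against 336 CPM. Both were also higher than in AT2 cells, 10.4- and 6.60-fold, and lower than in ciliated cells, 2.29- and 4.57-fold. These genes were used to choose the ciliated cells, so the ratios against that class describe the choice. Sec14l3 had a UMI in 81.7% of members and 7.10% of immune barcodes, or 60.9 and 3.06% after thinning.

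The remaining AT1 markers fell into a few kinds of protein. Among membrane and channel genes, Clic5, a chloride intracellular channel protein that links membrane and actin, was at 3115 CPM and 29.5-fold higher than in the others, Clic3 at 2061 CPM and 29.8-fold, and Pmp22 at 2671 CPM and 21.9-fold. Among cytoskeletal genes, Lmo7 (1683 CPM, 27.2-fold), Krt7, a simple-epithelium keratin (1625 CPM, 29.3-fold), Limch1 (1194 CPM, 15.4-fold) and Ahnak (1864 CPM, 3.38-fold) were higher. Timp3, a metalloproteinase inhibitor, was at 4090 CPM and 13.0-fold higher, Cyp2b10, a cytochrome P450, at 1525 CPM and 41.3-fold, and Cdkn2b, the p15 cell cycle inhibitor, at 238 CPM and 27.4-fold. Wnt3a and Wnt7a, Wnt ligands, were rare, at 78.2 and 64.5 CPM, but 121- and 82.3-fold higher. The 1 marker that was lower was Fxyd1, a sodium pump regulator, at 4.35 against 82.9 CPM. Against AT2 cells 31 of the 32 markers were higher and 1 lower (median log2 4.0), and against ciliated cells 30 and 1 (median 5.01).

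Gramd2, the gene that drives the Cre (chr9:59679833-59718873), was at 230 CPM (206 to 257) in the members, 35.2-fold (29.4 to 42.4) above the 6.54 CPM of the others. It was 5.95-fold (3.55 to 10.8) above AT2 cells (38.7 CPM) and 6.09-fold (4.61 to 8.16) above ciliated cells (37.9 CPM). A UMI was found in 42.8% of members and 1.44% of immune barcodes, and in 20.4 and 0.218% after thinning. At this low level a member without a Gramd2 UMI cannot be told from one that lacks the transcript.

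Further groups of genes, described by list, are given as the number called higher and lower out of those with at least 5 CPM in either class. On that base 12.8% of all genes were called higher and 15.3% lower against the others, 16.7 and 8.38% against AT2 cells, and 12.6 and 18.8% against ciliated cells. List members that were lower than in the compared class, and some others, were named after their values were seen. All 7 measured caveola genes but 1 were higher than in the others (6 higher, 0 lower, median log2 1.98), and the same count of 6 and 0 was found against AT2 cells (median 2.95) and ciliated cells (median 2.63). Cav1, the coat protein of caveolae, was at 1586 CPM, 5.98-fold (5.70 to 6.27) above the others, which include endothelial cells, 26.7-fold above AT2 cells and 114-fold above ciliated cells. Cavin2 was at 729 CPM (3.16-, 47.1- and 6.18-fold in the same order), Cav2 at 674 CPM (5.73-fold above the others) and Ehd2, an ATPase of the caveola neck, at 598 CPM (10.7-, 7.73- and 190-fold). Cavin3 was at 158 against 79.2 CPM, just short of 2-fold.

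Basement membrane genes were higher in 15 of 17 against the others, with 0 lower and a median log2 of 3.63. The counts were 15 higher and 0 lower of 16 against AT2 cells (median 2.73) and 14 higher and 1 lower of 16 against ciliated cells (median 4.78). All 6 type IV collagen chains were among those higher than in the others: besides the rule gene Col4a3 and its partner Col4a4, Col4a1 was at 784 CPM (6.59-fold), Col4a2 at 721 CPM (11.2-fold), Col4a5 at 404 CPM (28.6-fold) and Col4a6 at 47.8 CPM (8.77-fold). Col4a3 (chr1:82586921-82722059) and Col4a4 (chr1:82448419-82587034) lie head to head and overlap at their annotated starts. Among laminin chains, Lama3 was at 489 CPM and Lamb3 at 361 CPM (43.6-fold). The nephronectin gene Npnt, whose product binds integrins, was at 745 CPM (12.4-fold), Agrn, agrin, at 540 CPM (21.8-fold) and Hspg2, perlecan, at 514 CPM (25.2-fold). The linker gene Nid1 had 1.45 CPM and Nid2 none, and Lamb1, at 7.24 CPM, was the 1 gene lower than in ciliated cells (6.45-fold).

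Ligands to vessels and nerves were higher in 10 of 16, with 2 lower (median log2 2.58). Besides Vegfa and Sema3a they included Sema3e, a repellent guidance ligand (1034 CPM, 28.8-fold), Pdgfa, which acts on fibroblasts (650 CPM, 12.1-fold), Bdnf, a neurotrophin (447 CPM, 38.4-fold), Sema3b (292 CPM, 36.0-fold), Pdgfb (247 CPM, 6.10-fold) and Fgf18 (55.1 CPM, 18.4-fold). Sema3c (23.2 against 148 CPM) and Edn1, endothelin (0.724 against 61.2 CPM), were lower. Against AT2 cells 10 of 12 were higher and 1 lower (median 3.76), and against ciliated cells 10 of 12 and 1 (median 3.06). The EGF family was higher in 5 of 6 with 0 lower (median log2 3.45): the ligands Hbegf (517 CPM, 34.4-fold) and Tgfa (39.8 CPM, 9.07-fold) and the receptors Erbb3 (138 CPM, 13.2-fold), Egfr (116 CPM, 13.7-fold) and Erbb2 (40.6 CPM, 4.46-fold). Areg, another ligand, was the exception at 2.90 CPM, lower by 34.7-fold than in AT2 cells and by 63.6-fold than in ciliated cells. Against AT2 cells 4 of 7 EGF family genes were higher and 1 lower (median 1.14), and against ciliated cells 2 of 6 and 1 (median 0.88).

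**Figure D4:**
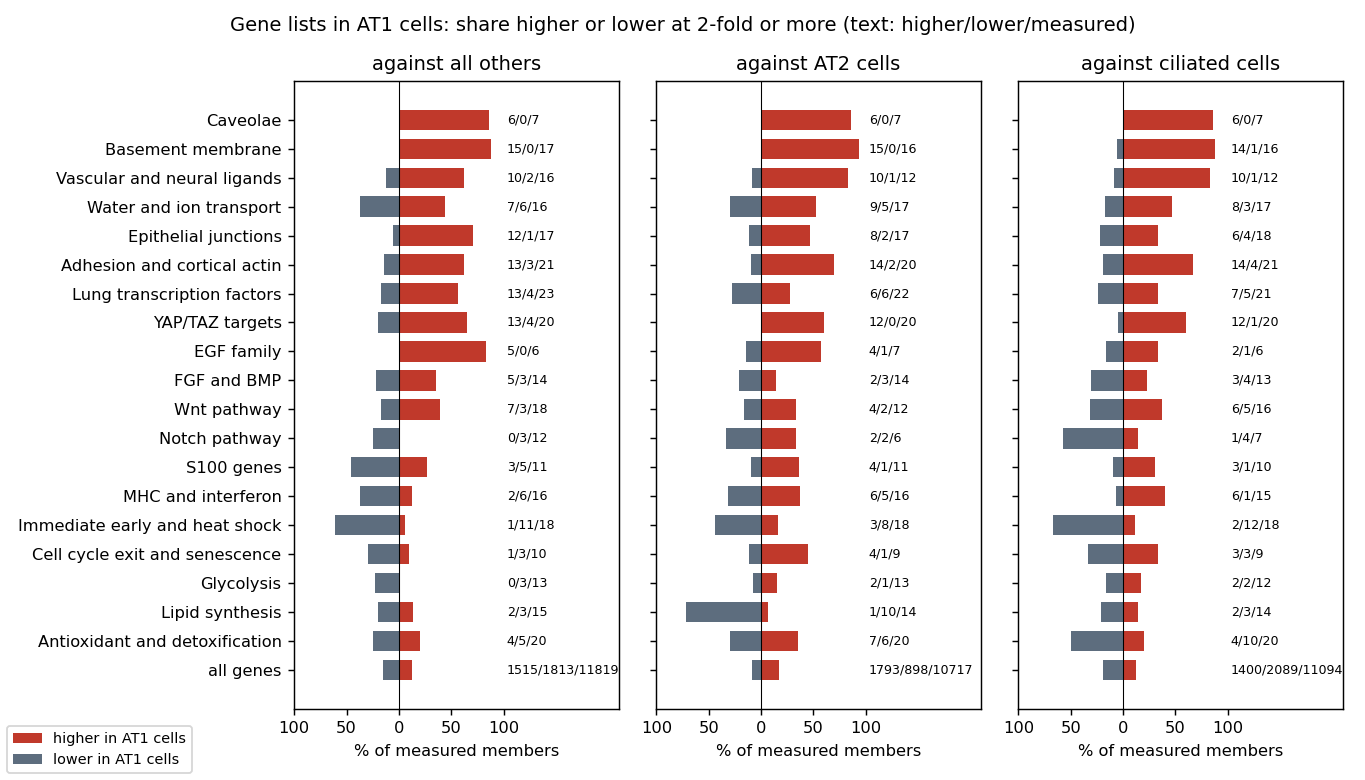
Percent of the measured members of each gene list called higher (red, to the right) or lower (blue-grey, to the left) in AT1 cells against all other kept barcodes, AT2 cells and ciliated cells of day 0, with counts of higher, lower and measured genes as text. Caveola and basement membrane genes lie to the right in all 3 panels, and immediate early and heat shock genes mostly to the left.

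Water and ion transport genes were divided, with 7 higher and 6 lower of 16 (median log2 0.09). The higher ones were Aqp5, Clic3, Clic5, the 3 subunits of the epithelial sodium channel and the chloride cotransporter Slc12a2. Scnn1a, the alpha subunit, was at 1043 CPM, 23.2-fold (21.5 to 25.1) above the others, 12.2-fold above AT2 cells and 3.11-fold above ciliated cells. Scnn1b and Scnn1g were at 484 and 716 CPM, 153- and 284-fold above ciliated cells. Lower than in the others were Fxyd5 (24.6 against 572 CPM), Aqp1, the endothelial water channel (21 against 289 CPM), Clic4, Atp1b3, Slc34a2 and Fxyd1. Cftr and Aqp3 had 0 UMIs in the members and Aqp4 2.17 CPM. Against AT2 cells 9 of 17 were higher and 5 lower (median 1.44), and against ciliated cells 8 and 3 of 17 (median 1.28).

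Epithelial junction genes were higher than in the mixed others in 12 of 17, with 1 lower (median log2 2.43). The medians were lower against the epithelial classes: 8 higher and 2 lower of 17 against AT2 cells (median 0.89) and 6 and 4 of 18 against ciliated cells (median 0.52). F11r, the junctional adhesion molecule A gene, was at 723 CPM (9.86-fold above the others), Cdh1, E-cadherin, at 551 CPM (8.11-fold), Epcam at 499 CPM (6.07-fold), Tjp1, ZO-1, at 324 CPM (4.46-fold) and Gja1, connexin 43, at 269 CPM (12.1-fold). Cdh1 was at 369 CPM in AT2 cells and 653 CPM in ciliated cells, within 2-fold of the members. The claudins did not move together: Cldn18 was higher and Cldn7 (239 CPM) was 4.48-fold above the others, while Cldn3 was at 34.0 CPM, lower by 17.0-fold than in AT2 cells and by 42.6-fold than in ciliated cells, and Cldn4 was at 0.724 CPM. Of 21 adhesion and cortical actin genes, 13 were higher and 3 lower (median log2 1.51). Cd9, a tetraspanin (3559 CPM, 2.51-fold), Msn, moesin (1342 CPM, 3.28-fold), Itgb1 (980 CPM, 2.84-fold) and Itga3, the laminin-binding integrin chain (417 CPM, 17.0-fold), were higher, while Itga6, the other laminin-binding chain, was lower (4.35 against 76.4 CPM). The counts were 14 and 2 of 20 against AT2 cells (median 1.77) and 14 and 4 of 21 against ciliated cells (median 1.89).

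Transcription factors of the lung were higher than in the others in 13 of 23, with 4 lower (median log2 1.54). Against AT2 cells the calls were even, 6 higher and 6 lower of 22 (median 0.26), and against ciliated cells 7 and 5 of 21 (median 0.69). Nkx2-1, the lung identity factor, was at 539 CPM, 14.6-fold (13.3 to 16) above the others but within 2-fold of AT2 cells (483 CPM) and of ciliated cells (279 CPM). Tead1, the DNA-binding partner of YAP and TAZ, was at 737 CPM, 20.9-fold above the others, 14.3-fold (9.19 to 23.5) above AT2 cells and 6.67-fold (5.68 to 7.88) above ciliated cells. Wwtr1, TAZ itself, was at 108 CPM (3.48-fold above AT2 cells), whereas Yap1, at 25.4 CPM, was 2.14-fold below AT2 cells. Irx1 (375 CPM), Irx2 (196 CPM), Klf5 (184 CPM), Gata6 (167 CPM) and Foxa2 (106 CPM) were 5.35- to 27.8-fold above the others. Cebpa, which AT2 cells use, was at 4.35 against 379 CPM, lower by 87.3-fold, and Etv5, also of AT2 cells, had 2 UMIs against 478 CPM.

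Targets of YAP and TAZ were higher in 13 of 20 against the others, with 4 lower (median log2 2.12). Against AT2 cells 12 were higher and 0 lower (median 2.16), and against ciliated cells 12 and 1 (median 1.98), each of 20. Ccn2 and Ccn1, secreted matricellular proteins, were at 727 and 544 CPM, 5.04- and 4.55-fold above the others and 9.08- and 52.7-fold above AT2 cells. Nt5e, the CD73 ectonucleotidase, was at 414 CPM (39.2-fold above the others), F3, tissue factor, at 382 CPM (9.21-fold), Amotl2 at 248 CPM (4.88-fold) and Ankrd1 at 106 CPM (18.7-fold). Crim1 (16.7 against 138 CPM) and Axl (9.42 against 129 CPM) were lower than in the others.

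Notch genes were not called higher against the others, while Wnt and FGF or BMP genes were mixed. Of 12 Notch genes 0 were higher and 3 lower (median log2 −2.16): Notch1 (4.35 against 82.7 CPM), Notch3 (5.79 against 33.6 CPM) and the ligand Jag1 (9.42 against 41.6 CPM). Hes1, a Notch target, was at 234 CPM, 3.13-fold above AT2 cells and 3.12-fold below ciliated cells. Of 18 Wnt genes 7 were higher and 3 lower (median −0.83), with the higher ones including the receptors Fzd2 (228 CPM, 24.8-fold) and Fzd1 (75.3 CPM, 6.56-fold) and the feedback ligase Rnf43 (29.7 CPM, 8.72-fold). Of 14 FGF and BMP genes 5 were higher and 3 lower (median −0.34), with Spry1, an FGF inhibitor, at 233 CPM (11-fold), Bmp4 at 175 CPM (5.77-fold) and Fgfr2, the receptor that AT2 cells need, at 101 CPM, 7.28-fold above the others and 2.95-fold below AT2 cells. Against AT2 cells the counts of higher and lower genes were 2 and 2 of 6 for Notch (median −0.92), 4 and 2 of 12 for Wnt (median 0.08) and 2 and 3 of 14 for FGF and BMP (median 0.09). Against ciliated cells they were 1 and 4 of 7 (median −2.54), 6 and 5 of 16 (median −0.84) and 3 and 4 of 13 (median 0.77).

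Among stress genes, most immediate early and heat shock genes were lower than in the others and in ciliated cells, but not most against AT2 cells. Of 18 immediate early and heat shock genes 1 was higher and 11 lower than in the others (median log2 −2.03), 3 and 8 against AT2 cells (median −0.64) and 2 and 12 against ciliated cells (median −1.64). Fos was at 143 against 793 CPM, lower by 5.56-fold (4.83 to 6.43), Junb at 128 against 743 CPM, Egr1 at 40.6 against 299 CPM and Hspa1a at 10.1 against 59.5 CPM. Ier3, an immediate early gene that protects cells from death, went the other way, at 1408 CPM and 9.42-fold (8.92 to 9.93) higher. Of 16 MHC and interferon genes 2 were higher and 6 lower (median −0.70): the class II genes Cd74 (214 against 4010 CPM), H2-Aa, H2-Ab1 and H2-Eb1 were lower, the class I gene H2-D1 (1192 against 1520 CPM) was not called, and Ifit3 (132 CPM) was 11.7-fold higher. The others hold many immune barcodes, and the counts differed against the epithelial classes: 6 higher and 5 lower of 16 against AT2 cells (median 0.38) and 6 and 1 of 15 against ciliated cells (median 0.71). Cd74 was also lower by 20.9-fold than in AT2 cells (4468 CPM), which are known to carry class II genes. Of 11 S100 genes 3 were higher, S100a6, S100a13 and S100a14, and 5 lower (median −0.14); the counts were 4 and 1 of 11 against AT2 cells (median 0.96) and 3 and 1 of 10 against ciliated cells (median 0.83).

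Metabolic and cell cycle lists had 0 to 4 genes called higher each against the others. Of 15 lipid synthesis genes 2 were higher and 3 lower than in the others (median log2 −0.16), and against AT2 cells 1 was higher and 10 lower of 14 (median −1.87). Fasn, fatty acid synthase, was at 15.2 against 568 CPM in AT2 cells and Scd1 at 13.8 against 3905 CPM, lower by 37.3- and 284-fold. Scd2, the other desaturase of the list, was the 1 gene higher than in AT2 cells, at 1741 CPM (1672 to 1812) against 532 CPM, 3.27-fold (2.84 to 3.79), and it was 23.2-fold above the others. Of 13 glycolysis genes 0 were higher and 3 lower (median −0.56), with Gapdh at 349 against 775 CPM. Of 20 antioxidant and detoxification genes 4 were higher and 5 lower (median −0.19), with Gpx4, which reduces lipid peroxides, at 1811 CPM (3.51-fold) and Cyp4b1 at 1135 CPM (7.44-fold). Of 10 genes of cell cycle exit 1, Cdkn2b, was higher and 3 lower (median −1.08), and Cdkn1a, the p21 inhibitor, was at 39.8 against 125 CPM. Against AT2 cells the counts of higher and lower genes were 2 and 1 of 13 for glycolysis (median 0.15), 7 and 6 of 20 for antioxidants (median 0.12) and 4 and 1 of 9 for cell cycle exit (median 0.95). Against ciliated cells they were 2 and 2 of 12 (median −0.30), 4 and 10 of 20 (median −1.10) and 3 and 3 of 9 (median −0.09), with 2 and 3 of 14 for lipid synthesis (median −0.58). Mki67 and Top2a, of dividing cells, were both at 3.62 CPM, against 62.2 and 92.3 CPM.

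Markers of other cell types in the members were low but not all absent. The summed level of the 16 AT2 markers was 1171 CPM, beside 218976 CPM in AT2 cells and 8772 CPM in immune barcodes, with Lamp3, Hc and Il33 at 0. This list holds Lyz2, which macrophages also make, so the immune sum is not a background of free RNA. Sftpc alone was at 380 CPM in immune barcodes. The airway secretory list summed to 6834 CPM, almost all Scgb1a1, beside 12918 CPM in ciliated and 8377 CPM in immune barcodes. The ciliated list summed to 1957 CPM, beside 13382 CPM in ciliated cells, and the mesenchymal list to 796 CPM, of which Gsn, gelsolin, gave 706 CPM. The basal, mesothelial and neuroendocrine lists summed to 0.724, 0.724 and 5.07 CPM, with Krt5, Trp63, Ngfr, Wt1 and Calca at 0. The myeloid list summed to 866 CPM, the lymphoid to 106, the endothelial to 92.7, the smooth muscle to 277 and the erythroid to 7.24 CPM.

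Airway and surfactant transcripts were found in every class. For every 100 UMIs of Scgb1a1 there were 6.0 of Sftpc in AT1 cells and 4.71 in immune barcodes, beside 1675 in AT2 and 1.06 in ciliated cells, and 2.16 and 2.5 of Scgb3a2, another secretoglobin. Sftpc had a UMI in 32.0% of members and 30.8% of immune barcodes, or 17.1 and 10.9% after thinning, and its level was 395 and 380 CPM. Since 3 members held 57.2% of its UMIs, the level without the 21 rich members was lower, 171 CPM or 2.6 UMIs per 100 of Scgb1a1, with a UMI in 31.6% of members and 14.8% after a new thinning. The level of Sftpc was thus close to or below that of immune barcodes, from which no rich barcodes were left out, but above the 118 CPM of ciliated cells. Its share after thinning was above that of immune barcodes, and no expression is read from it. Scgb1a1 was at 6583 CPM in the members and 8071 CPM in immune barcodes, but the median barcode had 0.629% of its UMIs from the airway list in AT1 cells and 0.354% in immune barcodes, and its source was not tested.

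The reporter was found in most members. EGFP was at 1847 CPM (1776 to 1920), 13.4-fold above the others; AT2 cells held 1928 CPM, within 2-fold, and ciliated cells 719 CPM, 2.57-fold (2.39 to 2.76) less. EGFP had a UMI in 86.2% of members and 23.2% of immune barcodes, or 71.7 and 6.2% after thinning. The unrecombined tdTomato was at 115 CPM, 2.17-fold below the others (249 CPM), and immune barcodes held 234 CPM. Of the 493 members, 425 had an EGFP UMI, 86 a tdTomato UMI, 64 both, 22 tdTomato only and 46 neither. Among the 380 with at least 2 reporter UMIs, 313 (82.4%, 78.2 to 86.1%) were EGFP-dominant, with at least 80% of these UMIs from EGFP, and 67 were not.

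EGFP-dominant members differed little in AT1 genes from the 67 others. Of 7020 genes 76 were higher (1.08%) and 193 lower (2.75%). Ager was at 24625 against 23139 CPM, Hopx at 17285 against 17272 CPM, Vegfa at 5568 against 5260 CPM and Aqp5 at 4591 against 4520 CPM. Gramd2 was at 243 against 183 CPM, 1.33-fold with an interval of 0.957 to 1.88 that includes 1. The lower genes included markers of other classes: Sftpc (174 against 366 CPM, 2.10-fold), Lyz2 (134 against 316 CPM, 2.35-fold), Acta2, of smooth muscle (78.0 against 220 CPM, 2.82-fold), S100a9, of neutrophils (2.65-fold), and Cyp2f2, of club cells (2.97-fold). Without the 21 rich members the calls of Sftpc (178 against 127 CPM), Lyz2 (77.1 against 101 CPM) and S100a9 (5 against 1 UMIs) ended, while Acta2 was at 7.82 against 224 CPM and Cyp2f2 at 48.1 against 140 CPM. Those members were picked by genes such as Sftpc, Lyz2, S100a9 and Acta2 themselves. Col1a2, Adamts1, C4b and Mylk had 1 to 3 UMIs against 9 to 15 in the fewer other members. The 4 highest ratios, of Colgalt2, Ip6k2, Nipal3 and Tmco3, rested on 46 to 51 UMIs against 3. The 2 sets differed in median depth, 2882 and 3617 UMIs, and the part of depth and of mixed barcodes in these differences was not tested.

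Members with a Gramd2 UMI were compared with those without after thinning to 1000 UMIs (91 against 354 cells). Of 7273 genes 110 were higher (1.51%) and 57 lower (0.784%). The balance turned with depth, to 108 and 108 at 2000 UMIs and 73 and 113 without thinning. Ager was at 27308 against 25282 CPM (1.08-fold), Vegfa at 6714 against 5859 CPM (1.15-fold) and Scnn1g at 1011 against 737 CPM, 1.37-fold (1.07 to 1.75). EGFP was at 1824 against 1975 CPM. The genes with the highest ratios, Nip7, Fzd8, Mta3 and Arap1, had 5 to 8 UMIs against 2 to 4. Lower were Sftpc (154 against 466 CPM, 3.03-fold), Cd74 (98.9 against 266 CPM), S100a8 and S100a9 (2 against 44 and 1 against 63 UMIs), Aldh1a1 (3 against 41 UMIs) and Dusp3 (3 against 43 UMIs). Without the 21 rich members the other cells were thinned anew (83 against 344 cells), which also changed which cells had a Gramd2 UMI. Sftpc was then at 229 against 154 CPM and Cd74 at 181 against 134 CPM, neither called, and S100a8 and S100a9 had 1 to 3 UMIs on each side. Scnn1g was at 747 against 730 CPM in this new draw, and the part of the draw in its change was not tested.

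Igfbp2, the gene of mature AT1 cells, divided the members next. It had a UMI in 338 thinned cells and none in 107, and of 7050 genes 49 were higher (0.695%) and 222 lower (3.15%) in the cells with it. Since Igfbp2 is part of the rule, these values are a description. Ager was at 27175 against 21028 CPM (1.29-fold), Vegfa at 6500 against 4561 CPM (1.43-fold), Aqp5 at 5089 against 3738 CPM (1.36-fold), Pdpn at 1180 against 785 CPM (1.5-fold) and Ier3 at 1612 against 972 CPM (1.66-fold). Ccn2, the YAP/TAZ target, was at 876 against 421 CPM, 2.08-fold (1.52 to 2.92) higher, and Rab25, an epithelial trafficking GTPase, at 145 against 37.4 CPM. Sftpc was at 207 against 1019 CPM, lower by 4.92-fold, Ptma at 355 against 832 CPM, lower by 2.34-fold, and S100a9 had 3 against 61 UMIs. Of these genes Ccn2, Rab25, Sftpc, Ptma and S100a9 passed 2-fold, while Ager, Vegfa, Aqp5, Pdpn and Ier3 did not. Without the 21 rich members the other cells were thinned anew (325 against 102 cells), which also changed which cells had an Igfbp2 UMI. Ccn2 was then at 874 against 608 CPM, 1.44-fold (1.09 to 1.92), and Sftpc at 178 against 137 CPM, neither called. S100a9 had 4 against 0 UMIs, and Ptma was still lower (314 against 676 CPM, 2.16-fold). The part of the new random draw in the change of Ccn2 was not tested.

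The spread of single genes over the members was described by the variance over the mean of UMIs after thinning, which is near 1 for counting alone. Of 1821 genes with a mean of at least 0.1 UMI in the 445 thinned cells, the median was 1.05 and 30 genes reached 2. The highest values belonged to genes of other cell types found in a few barcodes: Igkc (332), Igha (94.6) and Jchain (61.0), of plasma cells, Sftpc (26.2), S100a9 (16.6), S100a8 (15.4), Lyz2 (15) and Cd74 (6.67). One barcode, the deepest of all with 16128 UMIs, had 52.8% of its UMIs from immunoglobulin genes and held 99.1% of those UMIs in the members; 3 members held 57.2% of the Sftpc UMIs and 6 held 92.1% of the S100a8 and S100a9 UMIs. Without the 21 members that had 1% or more of their UMIs from such genes, a choice made after seeing the data, 1556 genes were higher and 1832 lower than in the others.

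AT1 genes had lower ratios than the genes of other cell types named above. A ratio above 1 grows with the mean, so these values do not rank the spread of genes with unlike means. Ager had a ratio of 4.09, from 2 to 62 UMIs around a median of 26, Hopx 3.06, Igfbp2 3.04, Aqp5 2.37, Vegfa 2.26, Timp3 2.20, Ndnf 2.01, Cldn18 1.69 and Pdpn 1.3. Igfbp2 had a median of 2 UMIs and a highest of 20, and 186 of the 445 cells had 3 or more. The YAP/TAZ targets were uneven: Ccn2 had a ratio of 2.53, with a UMI in 165 of the 445 cells, 3 or more in 45 and at most 11, and Ccn1 a ratio of 2.05, with 153 and 24 cells. Thbs1 reached 7.68, with 1 member holding 23.8% of its UMIs. Gramd2 had a ratio of 0.973 and at most 2 UMIs in the 91 cells that had any. At its mean of 0.227 UMIs the ratio can lie near 1 even if cells differ, so evenness cannot be read from it.

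**Figure D5:**
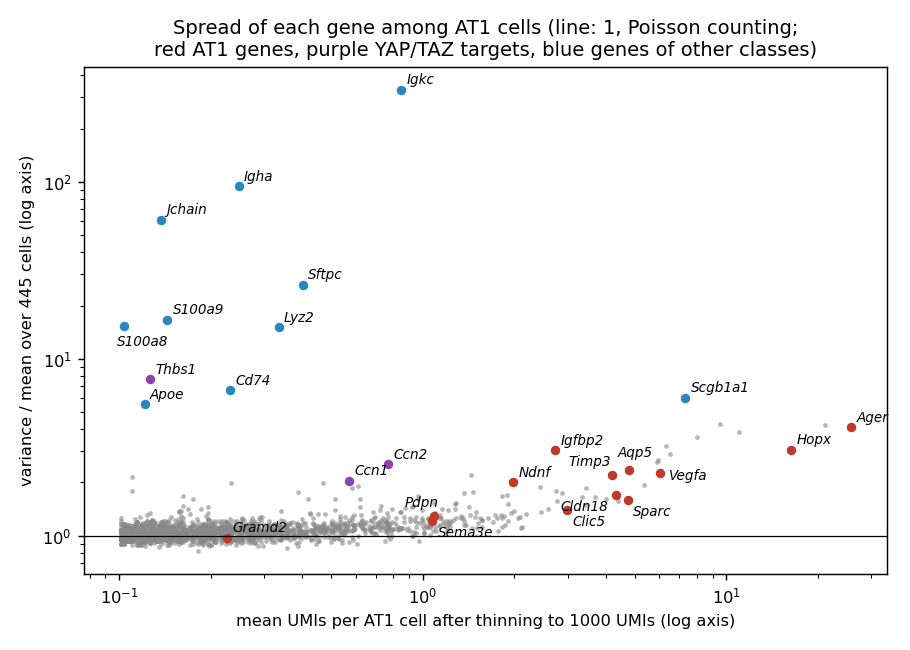
Variance over mean (log axis) against the mean UMIs per cell (log axis) for 1821 genes in the 445 AT1 cells thinned to 1000 UMIs, with AT1 genes in red, YAP/TAZ targets in purple and genes of other classes in blue; the line at 1 is the value for counting alone. Igkc, Igha, Jchain and Sftpc stand far above the line, AT1 genes lie between about 1 and the 4.09 of Ager, and Gramd2 lies on the line.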

How the data were processed

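Single cells of 4 libraries were read from raw UMI counts per gene and barcode, which the authors deposited; the submitters' processing notes name Cell Ranger 7.0.1 and mm10. The sources used here do not give the annotation behind the counts or any correction for free RNA. Genes were matched by symbol to the RefSeq annotation of build GRCm38.p6 (266 of 269 named genes had coordinates). The GENCODE vM21 annotation was used only for the printed promoter stretches.

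Members and gene lists were chosen with earlier results of these data known. UMIs were summed per class and scaled to CPM. CPM has an exact Poisson interval, a ratio an exact conditional Poisson interval and a share a Clopper-Pearson interval, all at 95%. The ratio calculation was tested on simulated data. A fold against 0 UMIs uses a floor of 3 UMIs over the class and is written as a lower bound. Doublets were scored with Scrublet in Scanpy 1.11.5 and removed only as an alternative, at 0.8% per 1000 barcodes. Computation used Python 3.11.15, NumPy 2.4.6, SciPy 1.17.1, pandas 2.3.3 and matplotlib 3.10.9, with seed 1 for thinning.

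Named genes were the 20 highest ratios against the others (at least 100 CPM in AT1 cells), the 8 lowest (at least 200 CPM in the others), the 10 most abundant, the 8 highest and 8 lowest against AT2 and ciliated cells, the 4 highest and 4 lowest of each split, the 10 highest in variance over mean, up to 6 of each list, the rule genes, the reporters and a few regulators. Mitochondrial, ribosomal, haemoglobin, immunoglobulin, Xist, Y-linked and predicted genes were left out of the ranked choices. Other list members named were chosen after their values were seen. Some genes that met these criteria are not reported here but are included in counts and medians. Alternatives changed the membership limits, the doublet, scaling, thinning and CPM settings, the fold and the AT2 rule.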

Additional observations from a re-analysis of the deposited data

How the results depend on the processing

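No paired analysis was possible because each day had 1 library. Over the named genes, 279 ratios gave 5253 values under 22 settings: 0 reversed, 42 were no longer called and 50 newly called. Members were 7.65% of kept barcodes with Cldn5 and Ptprc allowed and 5.48% with 8 more genes of other lineages required at 0. Against AT2 cells, 839 genes were higher after thinning to 1000 UMIs. With a filter at 5 CPM, 3253 genes were lower than in the others. At 50 CPM, 942 were lower than in the others, 551 than in AT2 cells and 1345 than in ciliated cells. At 1.5-fold, 2387 were higher than in the others. At 4-fold, 688 were higher than in the others, 660 higher and 471 lower than in AT2 cells, and 657 higher and 1275 lower than in ciliated cells. The filters and folds move these counts by construction, since they set which genes can be called. The EGFP-dominant share was 90.8% with at least 5 reporter UMIs (218 cells) and 93.4% with EGFP at 50% or more. The share with a Gramd2 UMI was 37.8% at 2000 UMIs (307 cells) and 42.8% without thinning. In the Gramd2 comparison 108 genes were lower at 2000 UMIs, and 73 were higher and 113 lower without thinning. As alternatives chosen after seeing the data, leaving out the barcodes at 0.5% of Ager and Hopx or more from the others gave 1528 genes higher and 1823 lower. Leaving out the 21 members rich in genes of other classes gave 1800 and 908 against AT2 cells, 1410 and 2092 against ciliated cells, 76 and 163 in the EGFP comparison, 95 and 39 in the Gramd2 comparison and 51 and 178 in the Igfbp2 comparison. For the Gramd2 and Igfbp2 comparisons the remaining cells were thinned anew, so their counts also reflect another random draw. The 1 library, the 90 AT2 cells and a median of 2624 UMIs per member limit what these values can show.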

Other observations

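Csf1r, the CSF1 receptor of macrophages, had the highest level of the 10 myeloid genes in AT1 cells. It was at 299 CPM (271 to 329), beside 252 CPM in immune barcodes, 155 CPM in all other kept barcodes, 10.1 CPM in ciliated cells and 2 UMIs in all AT2 cells. Immune barcodes were chosen by Ptprc and mix blood cell types, so their level is not that of macrophages. Csf1r was 29.6-fold (18 to 52.3) above ciliated cells, while its ratio to all other kept barcodes was under 2-fold and not called. A UMI was found in 53.3% of members (48.8 to 57.8%) at a median depth of 2624 UMIs and in 48.6% of immune barcodes at 4279, or in 26.5 and 18.7% after thinning. Lyz2, the macrophage and AT2 lysozyme, followed at 272 CPM, with 64.3% of its UMIs in 5 members. Other myeloid genes of the members were low: Tyrobp was at 41.3 CPM beside 1685 CPM in immune barcodes, Fcer1g at 31.1 beside 1714 CPM, Ctss at 26.8 beside 1215 CPM and Cd68 at 9.42 beside 235 CPM. Spi1, a myeloid regulator outside the list, was at 5.79 beside 370 CPM. Csf1r kept its log2 ratio against the others without the 21 members rich in genes of other classes (0.98, beside 0.94 with them). It was picked out after its values were seen.

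The same membership rule met few barcodes in the organoids: 7 at day 8 (0.0887% of those kept), 28 at day 13 (0.301%) and 20 at day 20 (0.218%). Their levels are set side by side, with 1 library a day. Ager was at 10217, 11944 and 13806 CPM and Hopx at 3950, 3606 and 5595 CPM at days 8, 13 and 20, below the 24200 and 16872 CPM of the sorted cells. Aqp5 was at 4951, 6102 and 4913 CPM and Ndnf at 2058, 2194 and 1609 CPM, near the sorted levels of 4569 and 1961 CPM. Vegfa was at 371, 360 and 199 CPM, beside 5453 CPM in the sorted cells, Igfbp2 at 0, 18.2 and 0 CPM beside 2591 CPM, and Col4a3 at 223, 380 and 273 CPM beside 2025 CPM. Bdnf had no UMI in any of the 3 days. Sftpc was at 16170, 39744 and 75647 CPM, beside 395 CPM, and Krt8 at 1168, 860 and 904 CPM, beside 522 CPM. Gramd2 was at 130, 115 and 102 CPM, beside 230 CPM. Ager, Hopx, Igfbp2 and Col4a3 are part of the rule.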
